A study of Sus scrofa with 4 samples.

Results

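The genes described are the subunits of the ATP-dependent chromatin remodelers and their ARID relatives in 4-cell embryos of the pig (Sus scrofa). They were taken by symbol: every gene named SMARC, CHD1 to CHD9, ARID1 to ARID5, INO80, ACTL6A, ACTR5, ACTR6, ACTR8, BPTF, RUVBL, MTA1 to MTA3, MBD2, MBD3, BRD7, BRD9 or PBRM1. That gave 52 genes on 80 transcript rows, out of 25560 genes on 35395 rows. The tested embryos carried the genotype label TFAP2C KD with small interfering RNA injection as their treatment, and the control embryos carried the label Control. TFAP2C encodes AP-2 gamma, a transcription factor known from the trophectoderm and germ line. Both groups had 2 libraries. A protocol of cytoplasmic injection is given for all samples, and the labels do not say which RNA, if any, the control embryos received. Neither the embryos per library nor separate pools for the libraries are stated, so p-values measure only library-to-library spread, which may be technical.

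Chromatin remodelers use the energy of ATP to slide, eject or exchange nucleosomes, and each complex is built around a Snf2-type ATPase. The families differ in what they do. SWI/SNF (BAF) complexes open chromatin by sliding and ejecting nucleosomes, ISWI complexes space nucleosomes evenly, CHD proteins include the ATPases of the repressive NuRD complex, and the INO80 and SRCAP complexes exchange the histone variant H2A.Z. In the mouse, SWI/SNF built on maternally stored SMARCA4 is known to be needed for activation of the embryonic genome.

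TFAP2C itself stood at 0.448 and 3.11 FPKM (fragments scaled for transcript length and library size) in the libraries labelled knockdown, against 14.7 and 7.78 FPKM in the libraries labelled control (limma, log2 fold change -2.27, SE 0.57, Benjamini-Hochberg adjusted p = 0.0745). This row does not check the labels. Whether the row or the labels were exchanged was not tested. If the labels were, every direction given below would turn. If the row was, the fold change of TFAP2C would turn instead, with TFAP2C higher in the labelled knockdowns. The ratio of coverage to FPKM is fixed within each library, 6.07 and 8.83 in labelled knockdowns 1 and 2 and 6.69 and 7.03 in labelled controls 1 and 2, but the TFAP2C row carried 6.69 and 7.03 under the labelled knockdowns and 6.07 and 8.83 under the labelled controls. No remodeler row was off its library's constant by more than 1%, among 51 to 60 rows above 0.01 FPKM in a library. By these ratios the TFAP2C values of 0.448 and 3.11 FPKM go with the libraries that all other rows place under control. Those of 14.7 and 7.78 FPKM go with the libraries that the other rows place under knockdown. The groups are therefore called labelled knockdown and labelled control, as the other rows have them. The 13 oocyte and cleavage embryo markers in the file summed to 1462 and 1530 FPKM in the labelled knockdowns and to 3549 and 3631 FPKM in the labelled controls. The part of this difference in the values below was not tested. For the 18 markers of cumulus and granulosa cells the sums were 20.6 and 13.5 FPKM in the labelled knockdowns and 19.3 and 11.8 FPKM in the labelled controls, with 5 of them reaching 1 FPKM in any library and AMH and PTGS2 listed at 0 in all of them. Blood and sperm markers summed to at most 0.412 and 0.584 FPKM in any library. Mitochondrially encoded protein genes took 39.9% and 26.9% of all transcripts in labelled knockdowns 1 and 2, against 18.5% and 24.1% in labelled controls 1 and 2, and the part of this in the remodeler values was not tested either.

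Only some of the remodelers were well represented in the 4-cell embryos. The most abundant members were ARID4A and SMARCA5, the only ones among the 1000 genes with the highest mean FPKM, followed by ACTR6, BRD7, ACTL6A, MTA3, CHD1 and SMARCC1. Of the 52 genes, 36 averaged 1 FPKM or more and were tested, and 13 of these had a mean of at least 10 FPKM. The other 16 were low, with no value above 1.04 FPKM in any library. Those listed at 0 in at least 1 library were SMARCD3, CHD3, CHD5, MTA1, MTA2, INO80B, ARID3A and ARID5A, with CHD5, a CHD protein known from neurons, at 0 in all of them. The rest of the low genes were SMARCA4, SMARCA1, SMARCAL1, ARID1B, ARID3C, MBD2, MBD3 and ACTR5. The mean read depth per base of the tested members ran from 1.63 (RUVBL2 in labelled control 1) to 2000 (ARID4A in labelled knockdown 2), so low members are known less well.

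**Figure D1:**
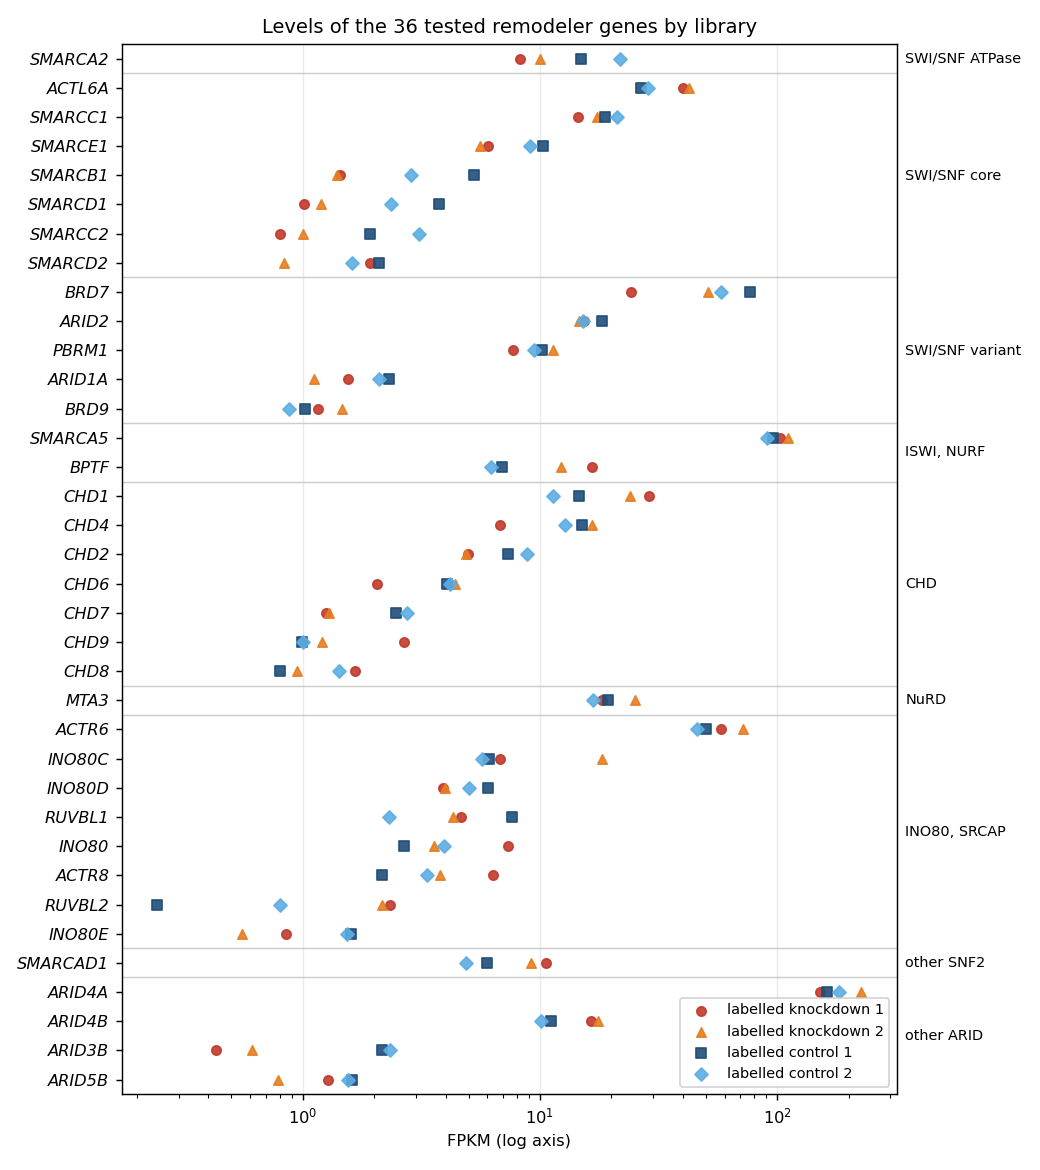
FPKM of the 36 tested remodeler genes in each library (log axis), one row per gene, grouped by complex, with labelled knockdowns in red and orange and labelled controls in dark and light blue. ARID4A and SMARCA5 lie at or above 90.1 FPKM in every library, and RUVBL2 in labelled control 1 is the lowest point at 0.244 FPKM.

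Setting the groups against each other addresses whether remodeler transcripts differ when TFAP2C is targeted. No remodeler gene passed the threshold: 0 of 36 tested were called higher or lower (limma on log2(FPKM + 1), Benjamini-Hochberg adjusted p under 0.05), against 6.57% of the 9850 genes tested (5.11% higher, 1.46% lower). All adjusted p-values below are from this fit. At an unadjusted p under 0.05 there were 9 members (4 higher, 5 lower), or 25%, against 27.9% of all genes. The lowest adjusted p of a member was 0.0749, for ARID3B. The values of the 2 groups did not overlap for 26 of 36 members, 12 higher and 14 lower in the labelled knockdowns, while 60.5% of all genes tested did not overlap (24.7% higher, 35.8% lower). The median log2 fold change was -0.10 over the members and -0.13 over all genes, with 17 members above 0 and 19 below. The scale sets this centre: the medians were 0.04 for members and -0.0098 for all genes after median-ratio scaling, and -0.38 and -0.39 with TPM (transcript abundance scaled to a fixed sum). On the log2(FPKM + 1) scale, which shrinks the differences of low genes, 4 of 36 members differed 2-fold or more, against 21.1% of all genes. By the group means of FPKM themselves 10 of 36 did, against 30.2% of all genes.

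A missed threshold does not show that a level was the same. The standard errors of the members' log2 fold changes ran from 0.258 to 0.483, which gave 95% intervals of plus or minus 0.634 to 1.19. For 8 members, SMARCA5, ARID4A, MTA3, ARID2, PBRM1, SMARCC1, BRD9 and CHD8, the interval lay within 1 log2 unit in either direction on the log2(FPKM + 1) scale. That does not limit the FPKM difference of BRD9 and CHD8, which lie near 1 FPKM, to 2-fold. RNA in these bulk libraries cannot tell fewer transcripts per cell from a change in how many cells carry them.

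**Figure D2:**
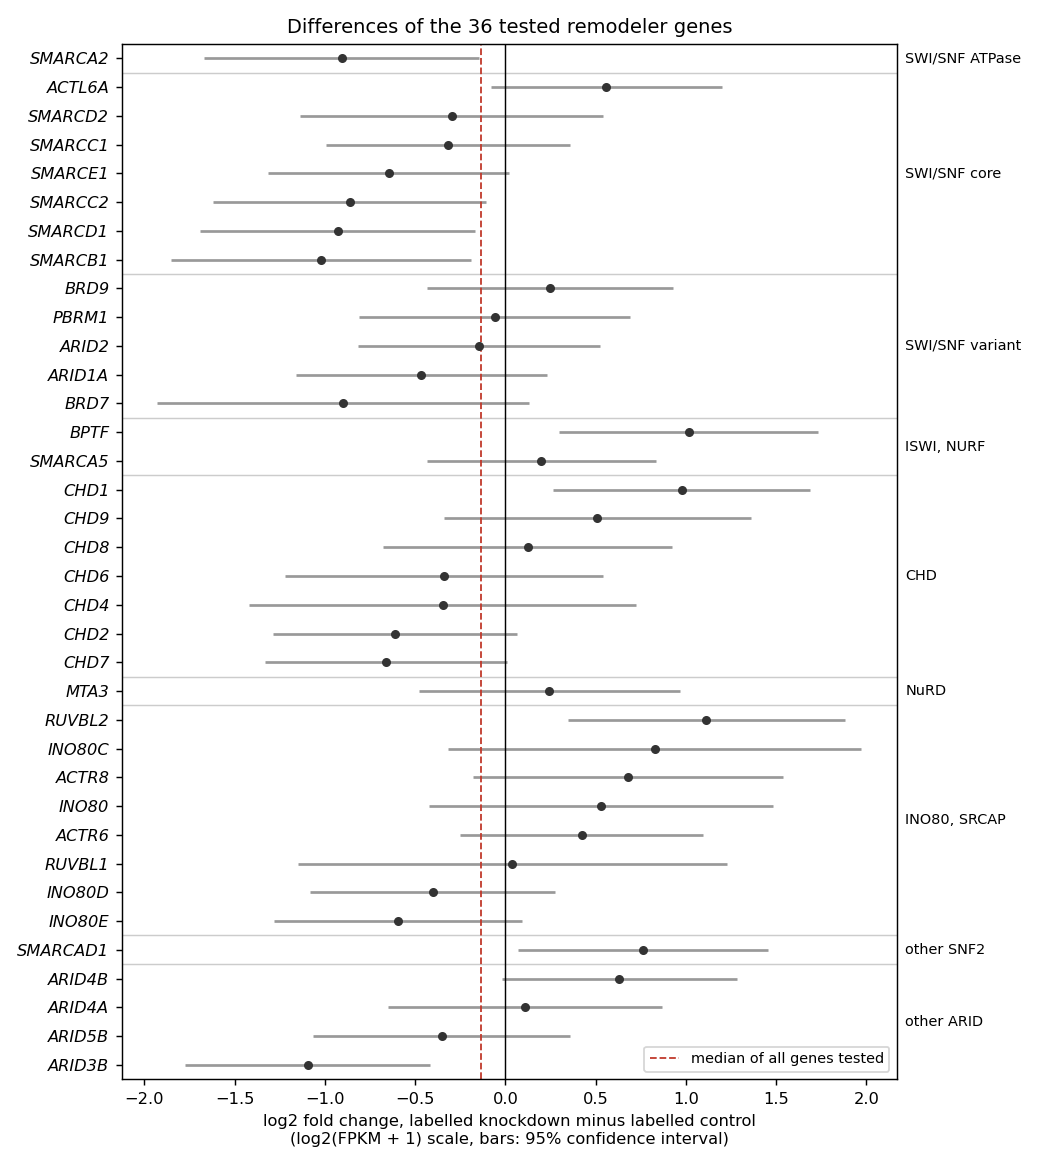
Log2 fold change of each tested remodeler gene, labelled knockdown minus labelled control on the log2(FPKM + 1) scale, with bars for the 95% confidence interval, and the median of all genes tested (-0.13) as a dashed line. SWI/SNF genes lie mostly to the left of that line and INO80 and SRCAP genes mostly to the right, from -1.10 for ARID3B to 1.11 for RUVBL2, and no gene was called.

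**Figure D3:**
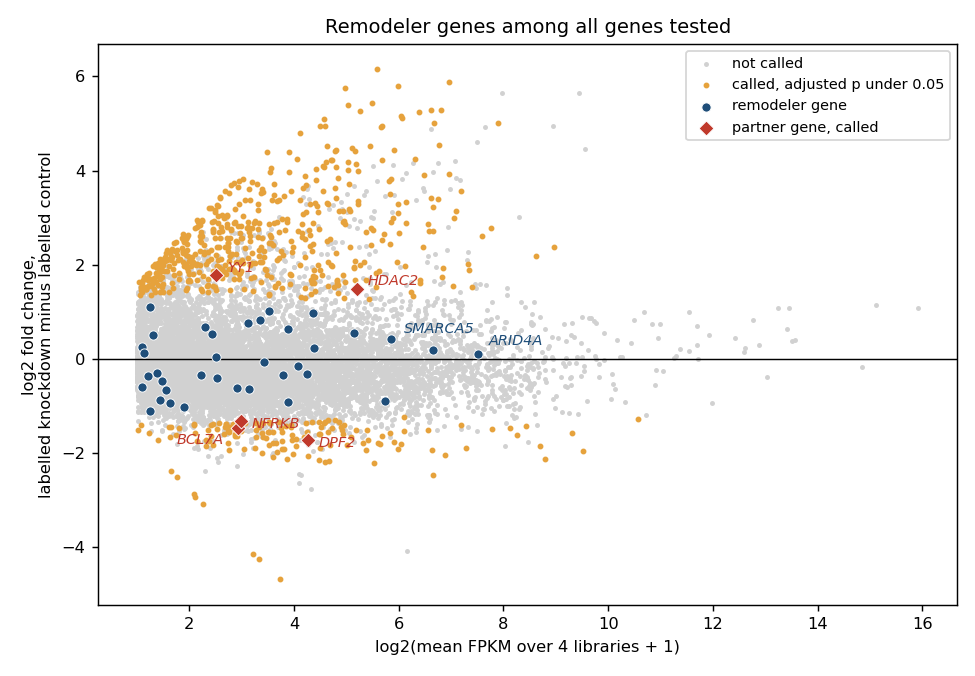
Log2 fold change (labelled knockdown minus labelled control) against log2 of the mean FPKM plus 1, for all 9850 genes tested. The 36 remodeler genes (blue) lie between -1.10 and 1.11, and none of them was called (orange). Of the partner genes only the 5 called ones are drawn (red diamonds), so the figure does not set members against partners.

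SWI/SNF complexes carry 1 of the ATPases SMARCA2 (BRM) and SMARCA4 (BRG1). The FPKM listed for this pair was almost all SMARCA2. SMARCA2 (chromosome 1, 219624773 to 219815438 on Sscrofa11.1) had 8.27 and 10 FPKM in the labelled knockdowns, against 14.8 and 21.7 FPKM in the labelled controls. The groups did not overlap, with a log2 fold change of -0.91 (limma: SE 0.31, adjusted p = 0.131). SMARCA4 (chromosome 2, 69717175 to 69810301) was below the minimum for testing, at 0.323 and 0.165 FPKM in the labelled knockdowns and 0.294 and 0.199 FPKM in the labelled controls. Within a library SMARCA2 was 25.6 to 109 times as high as SMARCA4 per length, so this ratio does not depend on the scaling between libraries. It does rest on 1 transcript row of SMARCA2, which held 100% of the gene in every library, with its other rows listed at 0. SMARCA4 had a mean depth of only 1.4 to 1.97 reads per base, so the size of the ratio is known poorly.

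The core subunits of SWI/SNF, of which SMARCB1 and SMARCE1 are absent from non-canonical BAF, were led by ACTL6A (BAF53A), an actin-related protein that also belongs to the INO80 and TIP60 complexes. ACTL6A stood at 40.1 and 42.3 FPKM in the labelled knockdowns and 26.7 and 28.6 FPKM in the labelled controls. It was the one core gene with higher values in both labelled knockdowns (log2 fold change 0.56 ± 0.26 SE, limma adjusted p = 0.225). SMARCC1 (BAF155), the scaffold around which the complex is assembled, had 14.4 and 17.4 FPKM in the labelled knockdowns and 18.7 and 21.2 FPKM in the labelled controls (log2 fold change -0.32). Its paralog SMARCC2 (BAF170) was far lower, at 0.799 and 1.00 FPKM in the labelled knockdowns, against 1.92 and 3.08 FPKM in the labelled controls. SMARCC1 made up 94.7% and 94.5% of the pair in the labelled knockdowns and 90.7% and 87.3% in the labelled controls.

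SMARCB1 (SNF5, chromosome 14, 49874981 to 49906043), a core subunit that contacts the nucleosome, had the largest difference of the core genes. Its only transcript row is a RefSeq non-coding model, so no coding transcript of the gene was listed. SMARCB1 stood at 1.44 and 1.40 FPKM in the labelled knockdowns, against 5.25 and 2.86 FPKM in the labelled controls, a log2 fold change of -1.02 (limma: SE 0.34, adjusted p = 0.124). Of the SMARCD subunits, which link the complex to transcription factors, SMARCD1 had 1.01 and 1.20 FPKM in the labelled knockdowns and 3.77 and 2.36 FPKM in the labelled controls. SMARCD2 overlapped between the groups, at 1.92 and 0.837 FPKM in the labelled knockdowns and 2.10 and 1.61 FPKM in the labelled controls, and SMARCD3 was listed at 0 except for 0.221 FPKM in labelled control 1. SMARCE1 (BAF57), a subunit with a DNA-binding HMG domain, had 6.04 and 5.61 FPKM in the labelled knockdowns and 10.3 and 9.06 FPKM in the labelled controls. Thus 5 of 7 tested core genes lay lower in both labelled knockdowns than in either labelled control and ACTL6A lay higher, where 35.8% and 24.7% of all genes did. The summed core FPKM overlapped between the groups, at 65.7 and 69.7 in the labelled knockdowns and 69.0 and 68.8 in the labelled controls, and ACTL6A made up 61.0% and 60.7% of it in the labelled knockdowns and 38.6% and 41.6% in the labelled controls. That overlap holds for FPKM: the labelled knockdown sums lay below the labelled control sums with TPM and above them after median-ratio scaling.

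Among the members that define SWI/SNF variants, those of PBAF had the highest levels. This order holds for the members only, since of the partner genes PHF10 of PBAF averaged 0.747 FPKM, DPF2 of canonical BAF 18.2 FPKM and SS18, which PBAF lacks, 32.7 FPKM. BRD7, the bromodomain subunit of PBAF, stood at 24.1 and 51.3 FPKM in the labelled knockdowns and 76.9 and 57.8 FPKM in the labelled controls (log2 fold change -0.90 ± 0.42 SE, limma adjusted p = 0.226). The labelled knockdowns were themselves far apart. ARID2, the ARID subunit of PBAF, had 15.3 and 14.5 FPKM in the labelled knockdowns and 18.2 and 15.2 FPKM in the labelled controls, and PBRM1, its polybromo subunit, had 7.69 and 11.4 FPKM in the labelled knockdowns and 10.2 and 9.46 FPKM in the labelled controls. For both genes the groups overlapped. ARID1A and ARID1B, the alternative ARID subunits of canonical BAF, were low. ARID1A had 1.55 and 1.12 FPKM in the labelled knockdowns and 2.32 and 2.10 FPKM in the labelled controls, and ARID1B stayed between 0.225 and 0.957 FPKM. ARID2 made up 86.1% and 91.5% of the sum of ARID2, ARID1A and ARID1B in the labelled knockdowns and 84.8% and 84.3% in the labelled controls. BRD9, of non-canonical BAF, had 1.16 and 1.47 FPKM in the labelled knockdowns and 1.02 and 0.877 FPKM in the labelled controls.

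Over the 3 SWI/SNF classes 13 of 16 genes were tested and none was called. For 8 of the 13 all labelled knockdown values lay below the labelled control values and for 2, ACTL6A and BRD9, above, against 35.8% of all genes below and 24.7% above. Their median log2 fold change was -0.47, against -0.13 for all genes. It was -0.37 against -0.0098 after median-ratio scaling and -0.78 against -0.39 with TPM, and 10 or 11 of the 13 were below 0 on each scale. As no set test was run, nothing is said of whether these genes stand apart from others.

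ISWI complexes were represented by SMARCA5 (SNF2H, chromosome 8, 84184572 to 84224943), the ISWI ATPase of dividing cells. SMARCA5 had 103 and 111 FPKM in the labelled knockdowns and 95.6 and 90.1 FPKM in the labelled controls, and its 4 values lay close together. The log2 fold change was 0.20 (limma: SE 0.26, 95% interval -0.43 to 0.83, adjusted p = 0.645), and with TPM it was -0.083. SMARCA1 (SNF2L), the other ISWI ATPase, known from differentiated cells such as neurons, stood at 0.272 and 0.568 FPKM in the labelled knockdowns and 0.467 and 0.917 FPKM in the labelled controls. SMARCA5 thus made up 99.0% to 99.7% of the pair in every library. BPTF (chromosome 12, 14112943 to 14254810), the large NURF subunit that binds trimethylated H3K4, had 16.6 and 12.3 FPKM in the labelled knockdowns, against 6.89 and 6.23 FPKM in the labelled controls. The groups did not overlap and the mean was 2.20 times as high, with a log2 fold change of 1.02 (limma: SE 0.29, adjusted p = 0.0954), short of the threshold.

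Among the CHD proteins the subfamilies differed in level. In subfamily I, CHD1 (chromosome 2, 105113149 to 105205303), which binds trimethylated H3K4 and keeps chromatin open in mouse embryonic stem cells, had 28.9 and 23.9 FPKM in the labelled knockdowns, against 14.6 and 11.3 FPKM in the labelled controls. Its log2 fold change was 0.98 (limma: SE 0.29, adjusted p = 0.102). The related CHD2 lay the other way, with 4.99 and 4.88 FPKM in the labelled knockdowns and 7.36 and 8.83 FPKM in the labelled controls (log2 fold change -0.61, adjusted p = 0.213 by limma). The share of CHD1 in the pair, which does not depend on scaling between libraries, was 85.3% and 83.0% in the labelled knockdowns and 66.5% and 56.2% in the labelled controls. Most paralog shares that were computed lay apart in this way, in either direction. They were those of SMARCC1, SMARCD1, ARID2, CHD4, MTA3, MBD2, RUVBL1 and ARID4A, while those of SMARCA2, ARID1A and SMARCA5 overlapped. With 2 libraries a group an exact permutation test of such a share cannot go below p = 0.333, so none was run.

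Subfamily II, which supplies the ATPases of NuRD, was CHD4 alone. CHD4 (chromosome 5, 64071627 to 64105212) had 6.78 and 16.5 FPKM in the labelled knockdowns and 15.1 and 12.7 FPKM in the labelled controls. The 2 labelled knockdowns stood on either side of the controls, and the log2 fold change of -0.35 (limma: SE 0.44, adjusted p = 0.633) became 0.24 without labelled knockdown 1. CHD3 stood at 0.0238 FPKM or less in every library. In subfamily III, CHD7, the gene mutated in human CHARGE syndrome, had 1.26 and 1.29 FPKM in the labelled knockdowns, against 2.46 and 2.75 FPKM in the labelled controls (log2 fold change -0.66 ± 0.27 SE, limma adjusted p = 0.183). CHD9 had 2.67 and 1.20 FPKM in the labelled knockdowns and 0.996 and 1.00 FPKM in the labelled controls. CHD6 had 2.06 and 4.37 FPKM in the labelled knockdowns and 4.07 and 4.18 FPKM in the labelled controls. CHD8, a binding partner of beta-catenin, had 1.66 and 0.945 FPKM in the labelled knockdowns and 0.805 and 1.42 FPKM in the labelled controls. For CHD6 and CHD8 the groups overlapped.

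Among the other NuRD members MTA3 was by far the highest. MTA3, a scaffold subunit of NuRD, had 18.3 and 25.1 FPKM in the labelled knockdowns and 19.3 and 16.8 FPKM in the labelled controls (log2 fold change 0.24 ± 0.29 SE, limma adjusted p = 0.618), and with TPM the fold change was -0.027. MTA2 had 0.868 and 0.683 FPKM in the labelled knockdowns against 0 (as listed) in labelled control 1 and 0.0835 FPKM in labelled control 2, and MTA1 was listed at 0 except for 0.126 FPKM in labelled control 2. MTA3 made up 95.5% and 97.4% of the 3 in the labelled knockdowns and 100% and 98.8% in the labelled controls. MBD2, which binds methylated DNA, had 0.857 and 0.559 FPKM in the labelled knockdowns and 0.258 and 0.376 FPKM in the labelled controls. MBD3, which in mammals hardly binds methylated DNA, had 0.821 and 0.0364 FPKM in the labelled knockdowns and 0.256 and 0.494 FPKM in the labelled controls.

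**Figure D4:**
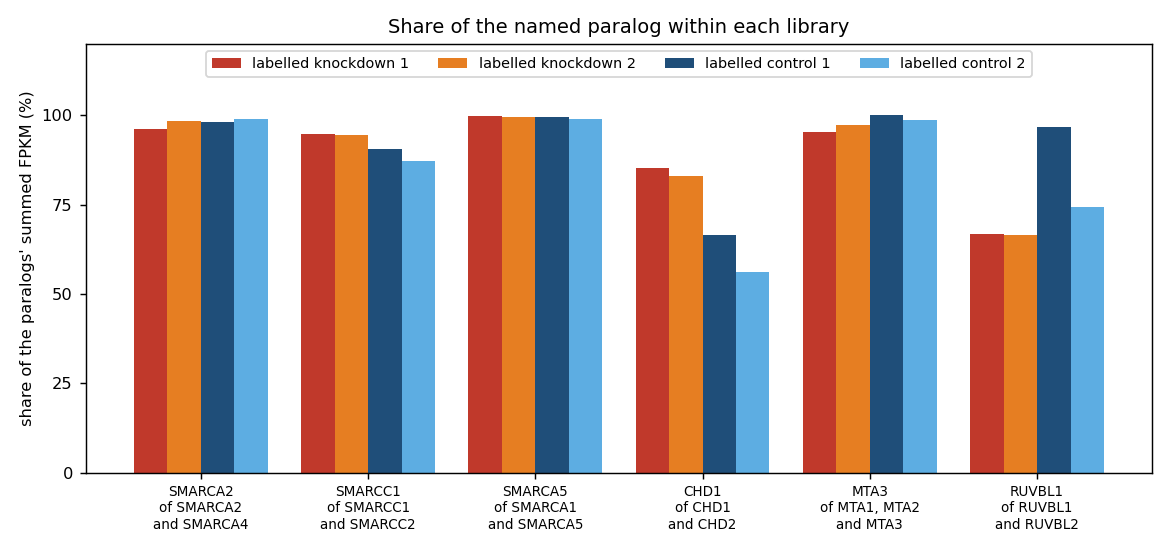
Share of 1 paralog in the summed FPKM of its paralog group (percent), in labelled knockdowns 1 and 2 (red, orange) and labelled controls 1 and 2 (dark and light blue). SMARCA2, SMARCA5 and MTA3 take over 95% in every library, and CHD1 takes 85.3% and 83.0% in the labelled knockdowns against 66.5% and 56.2% in the labelled controls. The groups also lie apart for SMARCC1, MTA3 and RUVBL1.

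In the INO80 and SRCAP class, INO80 (chromosome 1, 130201705 to 130341627) is the ATPase of the INO80 complex. It had 7.31 and 3.58 FPKM in the labelled knockdowns and 2.69 and 3.94 FPKM in the labelled controls, with overlap between the groups (log2 fold change 0.53 ± 0.39 SE, limma adjusted p = 0.406). SRCAP, the ATPase of the SRCAP complex, is not among the members. It was below the minimum for testing, at 1.41 and 0.645 FPKM in the labelled knockdowns and 0.186 and 0.654 FPKM in the labelled controls. ACTR6, the actin-related subunit of SRCAP and the third most abundant member, had 58.0 and 71.9 FPKM in the labelled knockdowns and 50.1 and 45.8 FPKM in the labelled controls. The AAA+ ATPases RUVBL1 and RUVBL2 form a mixed ring in both complexes. RUVBL2 (chromosome 6, 54250494 to 54263492) had 2.33 and 2.15 FPKM in the labelled knockdowns, against 0.244 and 0.799 FPKM in the labelled controls, the highest log2 fold change of any member at 1.11 (limma: SE 0.31, adjusted p = 0.0921). Its depth in labelled control 1 was only 1.63 reads per base. RUVBL1 had 4.66 and 4.29 FPKM in the labelled knockdowns, inside the range of 7.59 and 2.31 FPKM in the labelled controls.

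Of the smaller INO80 subunits, INO80C had 6.77 and 18.2 FPKM in the labelled knockdowns and 6.09 and 5.68 FPKM in the labelled controls, so that labelled knockdown 2 made the difference. ACTR8 had 6.32 and 3.81 FPKM in the labelled knockdowns and 2.15 and 3.35 FPKM in the labelled controls, and ACTR5, another INO80 subunit, had 1.04 and 0.736 FPKM in the labelled knockdowns and 0.151 and 0.312 FPKM in the labelled controls. INO80D and INO80E lay lower: INO80D had 3.89 and 3.97 FPKM in the labelled knockdowns and 6.03 and 5.04 FPKM in the labelled controls, and INO80E 0.847 and 0.555 FPKM in the labelled knockdowns and 1.59 and 1.53 FPKM in the labelled controls. Of the 8 tested genes of the class 6 had a log2 fold change above 0, with a median of 0.48, which was 0.24 with TPM (5 of 8 above 0) and 0.61 with median-ratio scaling. It was 0.24 (5 of 8 above 0) without labelled knockdown 1 and 0.22 without labelled knockdown 2. All 4 without overlap on the high side, ACTR6, ACTR8, RUVBL2 and INO80C, missed the threshold, and 24.7% of all genes lay apart on the high side.

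SMARCAD1, a Snf2-type ATPase with roles in heterochromatin and DNA end resection, had 10.6 and 9.14 FPKM in the labelled knockdowns, against 5.97 and 4.87 FPKM in the labelled controls (log2 fold change 0.76 ± 0.28 SE, limma adjusted p = 0.15). SMARCAL1, which anneals DNA at stalled replication forks, had 0.680 and 0.349 FPKM in the labelled knockdowns and 0.254 and 0.474 FPKM in the labelled controls. The ARID proteins outside SWI/SNF included the most abundant gene of all members. ARID4A (chromosome 1, 187385324 to 187452558), which binds the retinoblastoma protein and belongs to SIN3 deacetylase complexes, had 151 and 227 FPKM in the labelled knockdowns and 162 and 182 FPKM in the labelled controls, with a log2 fold change of 0.11 (limma: SE 0.31, adjusted p = 0.845) that was -0.17 with TPM. Its paralog ARID4B had 16.4 and 17.6 FPKM in the labelled knockdowns and 11.1 and 10.1 FPKM in the labelled controls. ARID3B (chromosome 7, 58932450 to 58998707), a DNA-binding ARID protein, had the lowest log2 fold change of any member, -1.10 (SE 0.28, adjusted p = 0.0749 by limma), with 0.431 and 0.611 FPKM in the labelled knockdowns, against 2.16 and 2.33 FPKM in the labelled controls. ARID5B, a partner of the H3K9 demethylase PHF2, had 1.28 and 0.788 FPKM in the labelled knockdowns and 1.61 and 1.55 FPKM in the labelled controls. ARID5A had 0.205 and 0.2 FPKM in the labelled knockdowns and was listed at 0 in both labelled controls.

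Summed over the class, the FPKM values gave 8.60 and 10.2 for the SWI/SNF ATPases in the labelled knockdowns, against 15.1 and 21.9 in the labelled controls. For the variant-defining SWI/SNF subunits the sums were 50.8 and 80.1 in the labelled knockdowns, against 110 and 86.1 in the labelled controls. ISWI and NURF summed to 119 and 124 in the labelled knockdowns and 103 and 97.3 in the labelled controls, and INO80 and SRCAP to 91.2 and 109 in the labelled knockdowns and 76.6 and 68.9 in the labelled controls. All 52 genes together summed to 586 and 728 in the labelled knockdowns and 623 and 605 in the labelled controls, which overlapped. CHD subfamily III summed to 7.66 and 7.81 in the labelled knockdowns and 8.34 and 9.355 in the labelled controls. The NuRD subunits summed to 20.9 and 26.4 in the labelled knockdowns and 19.8 and 17.9 in the labelled controls. Of the classes only the SWI/SNF core, CHD subfamily II and the other ARID proteins overlapped in FPKM. Class sums that lay apart were thus usual, as they were for 60.5% of all single genes tested. These sums were not tested. On the TPM scale the groups overlapped for ISWI and NURF and for INO80 and SRCAP, while the SWI/SNF ATPases and variant-defining subunits were lower in both labelled knockdowns. After median-ratio scaling the variant-defining sums overlapped as well. CHD subfamily I and the other SNF2 ATPases were higher in both labelled knockdowns on all 3 scales, with TPM sums of 51.6 and 52.4 in the labelled knockdowns and 44.8 and 40.6 in the labelled controls for CHD subfamily I. The TPM sums of the other SNF2 ATPases were 17.2 and 17.3 in the labelled knockdowns and 12.7 and 10.8 in the labelled controls. Single genes weighed heavily in the FPKM sums of these classes. SMARCA2 held 96.2% to 99.1% of its class by library, SMARCA5 85.9% to 92.9%, and SMARCAD1 91.1% to 96.3%. ACTR6 held 63.6% to 66.5%, BRD7 47.5% to 70.1%, and CHD1 56.2% to 85.3%, while CHD2 in the same class as CHD1 lay the other way.

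The table gives several transcript rows for 16 of the members, and in some of these different rows were filled in different libraries. For SMARCA1, one row held 100% of the gene's FPKM in labelled knockdown 1 and labelled control 2, and another row held 100% in labelled knockdown 2 and labelled control 1. For CHD8, one row held 99.4% in labelled knockdown 1 and 93.3% in labelled control 2, and another held 100% in labelled knockdown 2 and labelled control 1. One row of SMARCA4 held 100% in labelled knockdown 1. Another held 78.99% in labelled knockdown 2, 100% in labelled control 1 and 91.15% in labelled control 2. ACTR5 had 100% in one row in labelled control 1 and 100% in another in labelled control 2. The rows of ARID4A, ACTR8 and BRD9 also changed between libraries in part. All these genes are named here because of these values. An exact 0 in such a file can be a failed estimate, and how the division of reads among rows of different length bears on the gene sums was not tested. The only row of SMARCB1 and that of ARID4B are RefSeq non-coding models, as are some rows of other members, such as ACTR8 and BRD9. How their values bear on the coding transcripts was not tested.

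Further genes were taken from a list of 64 partners, of which 45 were tested, 16 were under 1 FPKM and 3 were not analysed here. The list held other subunits of the same complexes and of TIP60. It also held 12 other Snf2-family ATPases, which were all tested and not called. Of the tested partners 5 passed the threshold, 5 of 45 against 6.57% of all genes: YY1 and HDAC2 rose, and DPF2, BCL7A and NFRKB fell (limma, adjusted p under 0.05), in the directions that the labels give. DPF2, a canonical BAF subunit whose PHD fingers read acylated histone H3, had 7.21 and 8.77 FPKM in the labelled knockdowns, against 25.5 and 31.5 FPKM in the labelled controls (log2 fold change -1.71, adjusted p = 0.0318 by limma). BCL7A, an accessory SWI/SNF subunit, had 2.88 and 3.25 FPKM in the labelled knockdowns, against 10.4 and 9.94 FPKM in the labelled controls (log2 fold change -1.46, adjusted p = 0.0403 by limma).

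The INO80 partners went both ways. YY1, a zinc finger transcription factor that is also an INO80 subunit, had 8.19 and 7.47 FPKM in the labelled knockdowns, against 1.12 and 2.11 FPKM in the labelled controls (log2 fold change 1.78, adjusted p = 0.0362 by limma). NFRKB, an INO80 subunit, had 3.66 and 3.49 FPKM in the labelled knockdowns, against 10.4 and 10.3 FPKM in the labelled controls (log2 fold change -1.31, adjusted p = 0.0473 by limma). HDAC2, a deacetylase of NuRD, had 47.1 and 59.7 FPKM in the labelled knockdowns, against 19.7 and 16.8 FPKM in the labelled controls (log2 fold change 1.49, adjusted p = 0.0422 by limma). These calls rest on few libraries: without either labelled knockdown or labelled control 1 none of the 5 was called, without labelled control 2 only YY1 was, and no gene in the whole table was called without labelled knockdown 1 or 2. Scaling also changed which genes were called: HDAC2 was lost with TPM (adjusted p = 0.0841 by limma) and NFRKB with median-ratio scaling (adjusted p = 0.0603 by limma), while GATAD2B was called with TPM and POLE3 with median-ratio scaling, so each count was again 5.

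**Figure D5:**
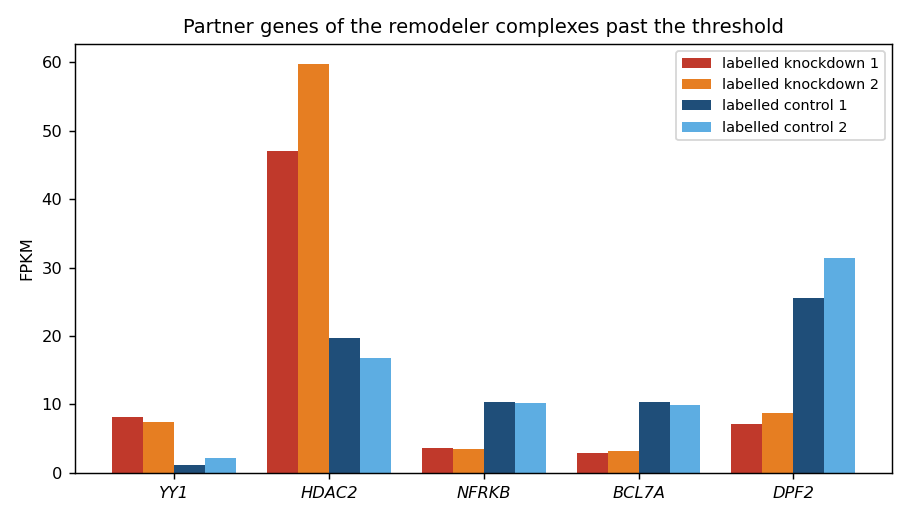
FPKM of the 5 partner genes past the threshold, in labelled knockdowns 1 and 2 (red, orange) and labelled controls 1 and 2 (dark and light blue), with 1 bar per library. YY1 and HDAC2 stand higher in both labelled knockdowns (HDAC2 at 47.1 and 59.7 FPKM against 19.7 and 16.8 FPKM), and NFRKB, BCL7A and DPF2 stand lower.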

How the data were processed

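RNA of 4 libraries of 4-cell pig embryos (2 labelled TFAP2C knockdown, 2 labelled control) was sequenced by the submitters. The submitters' processing notes name StringTie 2.1.7, Bowtie2 2.3.5, cutadapt and the build Sscrofa11.1, and what each did, with filters and annotation release, is not given in the sources used here. Per the labels' protocols, libraries came from a SMARTer kit, which amplifies cDNA, so low transcripts are noisy. The deposited table gives, per the file headers, coverage (signal per base, not scaled for depth), FPKM and TPM per transcript and library. The authors scaled FPKM for length and library, and TPM to a fixed sum. Read counts are not given, so depth as a count is unknown and the test planned for FPKM was used. Rows were named through RefSeq (32816 by accession) and FPKM was summed per gene. Overlapping genes and processed copies can share reads.

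The 9850 genes averaging 1 FPKM or more entered a limma fit (version 3.58.1, R 4.3.3, trended eBayes) of log2(FPKM + 1) on group alone, leaving 2 residual degrees of freedom. P-values were two-sided and adjusted by Benjamini-Hochberg over all genes, with a threshold of 0.05. The fit was tested on simulated data, where all genes had the same spread and changes were larger than those of the members. That test does not show how well changes of the members' size are found. Fold changes understate the change of low genes. Members, classes and partner lists were chosen with earlier results of these data known. The rule for named genes took TFAP2C, the ATPases, the 8 highest members, the largest difference in each class, and members or partners past the threshold; values of other members were added beyond that rule, after they were seen. Alternatives were median-ratio scaling, TPM, a pseudocount of 0.1, no filter, a minimum of 5 FPKM, transcript rows, leaving out each library and a replicate block. Figures were drawn with matplotlib 3.10.9.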

Additional observations from a re-analysis of the deposited data

How the results depend on the processing

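No remodeler gene was called under any alternative run, but that says little where few genes of any kind were called. Over all genes the calls numbered 647 (503 higher, 144 lower, limma with Benjamini-Hochberg adjustment), and 374 (312 and 62) with a pseudocount of 0.1, 0 (0 and 0) with no filter, where 3696 genes had an unadjusted p under 0.05, and 104 (70 and 34) over transcript rows. With a minimum of 5 FPKM 320 were higher, with median-ratio scaling 78 were lower and with TPM 268 were lower. Leaving out a library gave 0 to 526 calls (0 to 479 higher, 0 to 47 lower). The replicate block, in which libraries share only a number (correlation of their deviations over genes -0.143), gave 133 (125 and 8). The 5 partner calls became 2 with a pseudocount of 0.1, 0 with no filter, over transcript rows and with the replicate block, and 0 to 1 without a library. Of 261 refits of 27 named genes 217 kept direction and side, 35 lost a partner's call and 9 reversed a member: SMARCA5 (-0.083), CHD8 (-0.043), ARID4A (-0.17) and MTA3 (-0.027) with TPM, and without 1 library CHD4 (-0.93 to 0.24), CHD6 (-0.74 to 0.067), CHD8 (-0.10 to 0.35) and ARID4A (-0.18 to 0.40). Log2 ratios of class sums moved by more than the replicate spread with TPM for the SWI/SNF core (-0.30), ISWI and NURF (0.0041), CHD subfamily I (0.28) and III (-0.47), NuRD (0.065), INO80 and SRCAP (0.20) and other SNF2 ATPases (0.55). With median-ratio scaling they did for the core (0.13), ISWI and NURF (0.43), CHD subfamily I (0.73) and III (-0.041), and INO80 and SRCAP (0.62). The causes were not tested.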
